A study of Glycine max with 30 samples.

Results

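The change in gene expression across seed filling in the low phytic acid soybean line *3mlpa* was measured between the youngest and the oldest seeds sampled. Of the 30 libraries sequenced, 6 belonged to this comparison, with 3 from stage 1 seeds of 2 to 4 mm and 3 from stage 5 seeds of 10 to 12 mm, and the 9 *3mlpa* libraries of stages 2 to 4 were used to follow the genes in between. The *3mlpa* line carries *mips1*, *mrp-l* and *mrp-n*, mutant alleles of the genes for myo-inositol phosphate synthase and for a pair of transporters of the multidrug resistance-associated protein (MRP) family. The other line, 3MWT, carries MIPS1, MRP-L and MRP-N in their normal form, and its stage 1 and stage 5 libraries, again 3 each, served only to show where *3mlpa* differed. Both are recombinant inbred lines from a single cross, so each genotype is represented by 1 line, and the mutations are point mutations. Plants of both were grown in the same growth chamber without a treatment. Each library came from a pool of whole seeds taken from separate plants, with cotyledons, endosperm and seed coat together, and pools at the late stages held fewer seeds. The 6 libraries of a stage shared a sequencing lane, so stage and lane cannot be told apart, and in such bulk samples a smaller number of cells of a type and less RNA per cell cannot be told apart either.

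A soybean seed first builds its tissues by cell division and then fills its cotyledons with storage protein and oil. The storage proteins include the 11S and 7S globulins, and protease inhibitors accumulate with them. The cotyledons are green during filling and carry out photosynthesis. Phytic acid, the main store of phosphorus in seeds, is made from myo-inositol. In Arabidopsis an MRP transporter moves it into the vacuole, while the substrates of the soybean transporters MRP-L and MRP-N are not established. Gene identifiers are those of the soybean annotation v1.1, in which the digits after Glyma give the chromosome. The files held no gene names or coordinates, so genes are described by a name that the study gave or by the gene ontology (GO) term in its output.

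The stage 1 libraries held 20822206, 19212061 and 20839796 reads counted in genes, and the stage 5 libraries held 18625357, 22368334 and 24607364. Stage 5 was dominated by few genes, since 283 to 424 genes made up 50 % of the counts of a library, against 3504 to 3589 at stage 1. Reads in no annotated gene were 18.5 to 21.1 % of the HTSeq-count tally at stage 1 and 10.4 to 11.3 % at stage 5. Replicate 3 of stage 5 stood somewhat apart, with 6.51 % of genes over 2-fold away from the other replicates of its stage. Among the 3MWT libraries replicate 2 of stage 1 stood apart, with 8.03 % of genes. In *3mlpa* the 10 highest genes of a library held 3.96, 10.4 and 8.90 % of its counts at stage 3. At stage 4 they held 10.9, 12.2 and 21.3 %, so the means of these stages cover unlike libraries. Shares of the counts below are of library totals. Normalized counts, used for the levels of genes below, are counts divided by library size after scaling by the trimmed mean of M values (TMM), brought to the mean library. They are not per gene length and are compared only within a gene.

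In *3mlpa*, 16515 of 42222 genes tested were differentially expressed (DEGs) between stage 5 and stage 1 at 1 % FDR, which is 39.1 % (edgeR quasi-likelihood test, n = 3 per stage, Benjamini-Hochberg adjustment over all genes tested). Of the genes tested 8214, or 19.5 %, rose and 8301, or 19.7 %, fell, and with a change of at least 2-fold 4556 rose (10.8 %) and 6404 fell (15.2 %). These directions are relative to the TMM scaling. When library totals were used in its place, the median log2 fold change of all genes shifted down by 0.92, and 2566 genes (6.08 %) rose while 24254 (57.4 %) fell. Of the genes called under TMM, 694 were called in the other direction under library totals, so small rises depend on the scaling. Of the 9931 genes with a 2-fold change and more than 3 counts at both stages, 509 rose and 451 fell at least 16-fold, while 53 rose and 2 fell at least 256-fold. Genes that had dropped to 3 counts or fewer at a stage are left out of these numbers, and 286 of the genes called had 0 counts at stage 5 against 61 with 0 at stage 1.

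Seed storage genes led the rise. The term nutrient reservoir activity, which covers seed storage proteins, had 14 genes tested, of which 12 rose and the other 2 did not pass the test. The median log2 fold change of the 14 was 10.53 against -0.07 for all genes tested, of which 19.5 % rose. Under library totals 11 of the 14 rose and 1 fell. The lists used here were chosen in the study from differences between the lines in these same libraries and cover only its DEGs, so their counts are descriptions. The term held 0.0173, 0.00269 and 0.0218 % of the counts in the stage 1 libraries, and 19.2, 17.2 and 17.6 % in the stage 5 libraries. The means over the 5 stages were 0.0139, 0.205, 4.60, 9.81 and 18.0 %, so that most of the increase came from stage 3 onward.

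**Figure D1:**
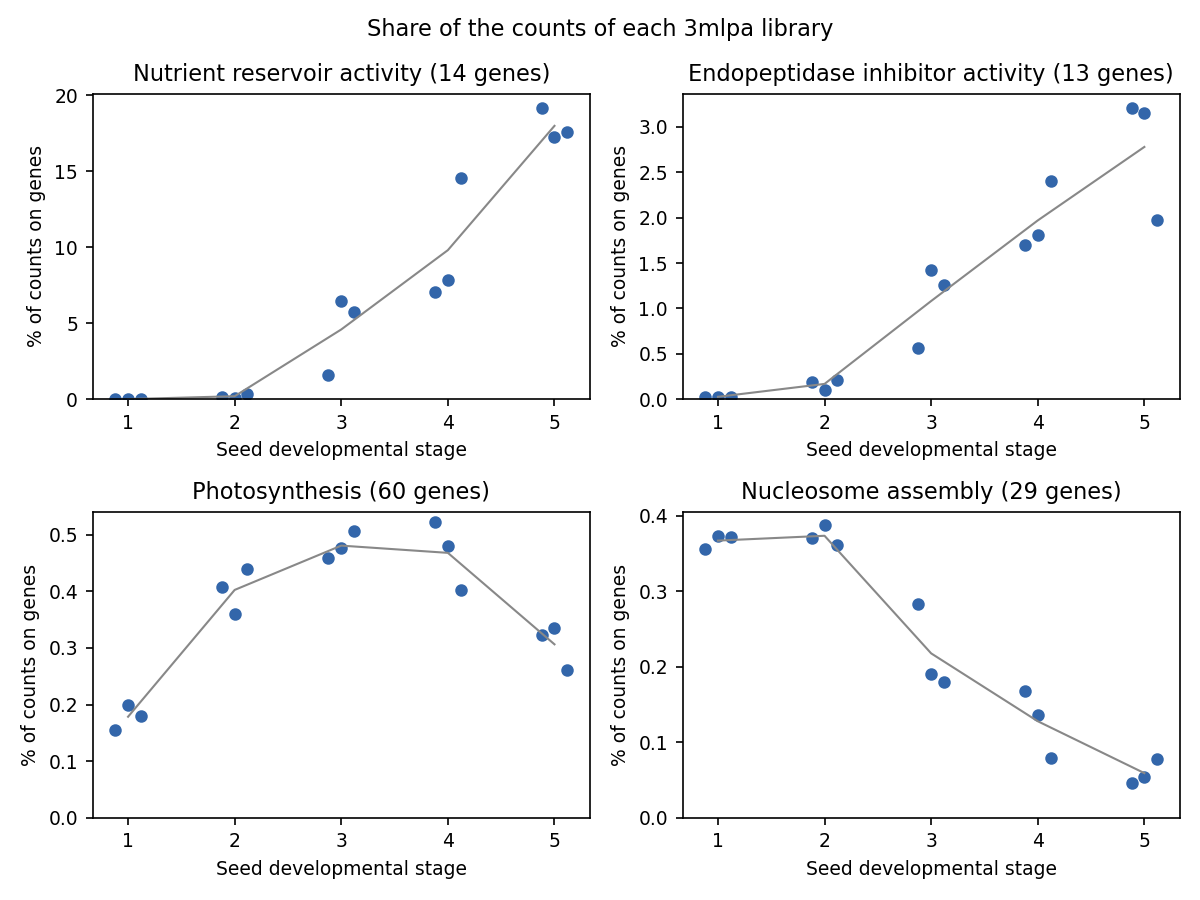
Share of the counts of each *3mlpa* library, in percent, held by the genes of 4 GO terms at the 5 stages; points are libraries and lines join the means of 3. Nutrient reservoir activity rose from a mean of 0.0139 % at stage 1 to 18.0 % at stage 5, nucleosome assembly fell from 0.367 to 0.0593 %, and the photosynthesis share was highest at stage 3 with 0.480 %. Shares are of library totals, without TMM scaling.

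The gene with the most counts at stage 5, Glyma03g32030, a member of nutrient reservoir activity, had 32.7, 7.50 and 14.6 normalized counts at stage 1 and 1624000, 1450000 and 1508000 at stage 5. Every stage 5 library was thus several orders of magnitude above every stage 1 library, and the log2 fold change was 16.31 (SE 0.92, edgeR adjusted p = 1.14e-05). The mean rose at each step, through 1709, 249900 and 736700 normalized counts at stages 2, 3 and 4 (SD 2000, 172400 and 389500). The neighbouring Glyma03g32020, of the same term, went from 15.6, 0.833 and 3.84 to 824200, 694400 and 732000 normalized counts (log2 fold change 16.70, SE 0.95, edgeR adjusted p = 1.17e-05). In both genes replicate 2 of stage 1 was the lowest library, as it was in 12 of the 14 genes of the term, and the rises were called without any one of the 6 libraries. Genes with so similar numbers may be close copies that share reads. Only reads with a single alignment were counted in genes, and whether these were copies was not tested.

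The 10 genes with the highest mean at stage 5 held 0.00519 to 0.0252 % of the counts at stage 1 and 24.7 to 27.9 % at stage 5. Choosing them by their stage 5 level builds in part of this contrast. Members of nutrient reservoir activity, Glyma03g32030, Glyma10g39150, Glyma10g04280, Glyma03g32020, Glyma13g18450 and Glyma10g03390, were among the 10. Another, Glyma08g12270, is listed under cysteine-type peptidase activity. It had 12.4, 4.17 and 63.7 normalized counts at stage 1 and 1126000, 1062000 and 770900 at stage 5 (log2 fold change 15.14, SE 1.22, edgeR adjusted p = 5.02e-05). Glyma15g03030, with no term in the files, rose from 262, 37.5 and 575 to 766300, 624200 and 706400 normalized counts (log2 fold change 11.21, SE 1.17, edgeR adjusted p = 0.000164). For both genes the spread within stage 1 was more than 10-fold, yet no stage 1 library came near a stage 5 library.

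Some of the steepest rises were in genes with almost no reads at stage 1. Glyma19g34780, of nutrient reservoir activity, had 1 count over the stage 1 libraries and 36090, 30900 and 10110 normalized counts at stage 5, a ratio of 93040 with a 95 % exact counting interval of 16700 to 3675000. Glyma20g28460, without a term, had 0 counts at stage 1 and 6348, 3386 and 28200 normalized counts at stage 5, at least 17030-fold higher against a floor of 3 counts over the group. In the former replicate 3 of stage 5 was the lowest of its stage and in the latter the highest. The stage 5 level of both thus varied widely between replicates. Counting intervals and floors cover counting error only.

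Protease inhibitors rose beside the storage genes. The term endopeptidase inhibitor activity had 12 genes tested, of which 8 rose and 2 fell, with a median log2 fold change of 3.67. Of all genes 19.5 % rose and 19.7 % fell. Under library totals 7 of the 12 rose and 3 fell. The share of the counts held by this term was 0.0255, 0.0283 and 0.0297 % at stage 1 and 3.21, 3.15 and 1.98 % at stage 5. Glyma08g45531 was the most abundant, with 836, 664 and 1189 normalized counts at stage 1 and 653000, 622700 and 444300 at stage 5 (log2 fold change 9.30, SE 0.51, edgeR adjusted p = 9.82e-06). Glyma01g10900 had 2 counts over the stage 1 libraries and 109800, 95660 and 69190 normalized counts at stage 5, a ratio of 169900 with a 95 % exact counting interval of 47020 to 1403000. The family did not move as 1 group, since Glyma16g33800 and Glyma08g45580 fell, with log2 fold changes of -4.12 (SE 0.29) and -2.96 (SE 0.46).

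The transporters that the *mrp* mutations affect are counted as separate genes. The forward primers that the study designed for each are shown, and the genes themselves were not compared over their length. They are 20 bases long, agree at 17 positions and differ at the 3 in capitals.
MRP-L (Glyma19g35230, chromosome 19): tggtcGagtTgcagagttcA
MRP-N (Glyma03g32500, chromosome 3): tggtcTagtCgcagagttcG

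Transcripts of both transporter genes rose in the mutant line during filling under TMM. MRP-L had 1271, 1157 and 1208 normalized counts at stage 1 and 3055, 2822 and 3544 at stage 5, and the groups did not overlap (log2 fold change 1.35, SE 0.11, edgeR adjusted p = 5.74e-05). Of all genes tested, 31.6 % had every stage 5 library above every stage 1 library and 33.9 % had every one below. MRP-N had 774, 787 and 827 at stage 1 and 2135, 1964 and 3901 at stage 5, where replicate 3 was high (log2 fold change 1.72, SE 0.25, edgeR adjusted p = 0.000815). Under library totals the log2 fold changes were 0.43 for MRP-L, still called, and 0.80 for MRP-N, not called (edgeR adjusted p = 0.0179). Both genes were lowest at stage 2, with means of 946 and 600 normalized counts, before rising. Counts per gene do not show a point mutation, so they are no check of the genotype, and MIPS1 was not analysed here.

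Photosynthesis genes rose together. Of the 45 that the study named, 35 rose and none was called lower, with a median log2 fold change of 1.66 (edgeR, against 19.5 and 19.7 % of all genes). One of the 45 was lower at an unadjusted p under 0.05, and DESeq2 called none lower. Under library totals 26 rose and 2 fell. By complex, 12 of 13 genes of photosystem I, 10 of 17 of photosystem II and 13 of 14 of the light harvesting complexes rose. The remaining gene of the list, CHLM of chlorophyll metabolism, was not called. The share of the counts held by the GO term photosynthesis had means of 0.178, 0.402, 0.480, 0.468 and 0.306 % over the 5 stages. This share is of library totals and not on the TMM scale of the calls. On the TMM scale each photosynthesis gene of the next paragraph had its highest mean at stage 4. Glyma15g19100 had means of 995, 1458 and 1416 normalized counts at stages 3, 4 and 5. Replicate 3 of stage 5 was the lowest of its stage in 33 of the 45 genes.

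Glyma16g28030, a chlorophyll a/b binding protein of light harvesting complex II (LHCB1), had 7.78, 10.8 and 8.44 normalized counts at stage 1 and 357, 410 and 436 at stage 5 (log2 fold change 5.44, SE 0.17, edgeR adjusted p = 2.22e-06). The mean was higher at stage 4, with 796. Glyma15g19100, a PsbX protein of photosystem II, rose from 135, 155 and 185 to 1550, 1360 and 1338 (log2 fold change 3.14, SE 0.14, edgeR adjusted p = 5.10e-06). The groups were well apart in both genes. Its pair Glyma09g07880 rose by 2.83 on the log2 scale (SE 0.17).

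**Figure D2:**
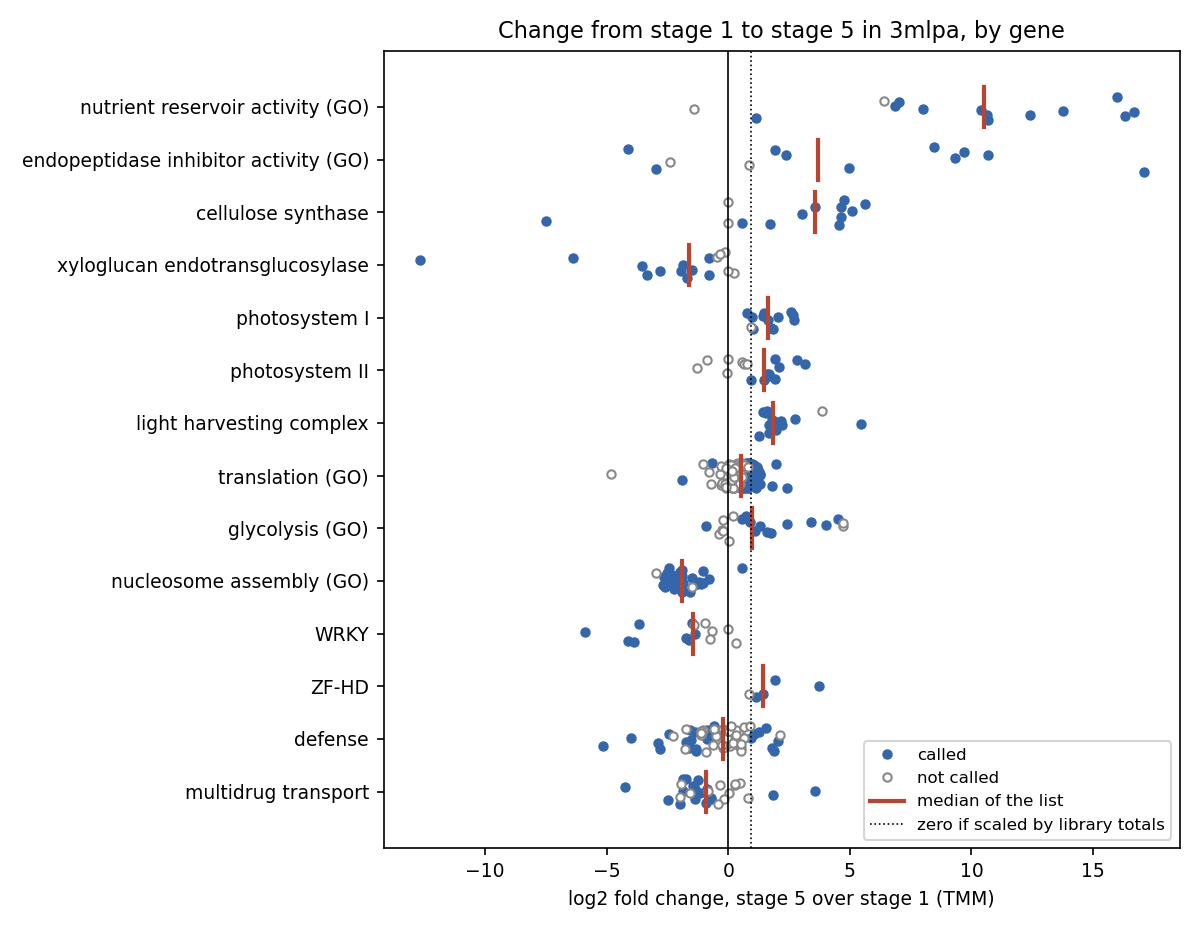
Log2 fold change of each gene from stage 1 to stage 5 in *3mlpa* (x axis) for 14 gene lists; filled points passed 1 % FDR, open points did not, red bars are list medians, and the dotted line at 0.92 marks where zero lies under library totals. Fitted values of genes with 0 counts at a stage are no bound; the median was 10.53 for nutrient reservoir activity and -1.92 for nucleosome assembly.

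Cell wall genes split by family. Of 13 cellulose synthase genes, enzymes that make the glucan chains of the wall, 10 rose and 1 fell, with a median log2 fold change of 3.57. Of 16 xyloglucan endotransglucosylase/hydrolase genes, whose enzymes cut and rejoin the xyloglucan that ties cellulose together, 11 fell and none rose (edgeR), with a median of -1.60. None of the 16 was higher at an unadjusted p under 0.05, and DESeq2 also called none higher. Of all genes 19.5 % rose and 19.7 % fell. Under library totals 7 of the 13 cellulose synthase genes rose and 2 fell. Of the 16 xyloglucan genes 12 fell and none rose under library totals.

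Glyma15g16900, a cellulose synthase gene, had 44.3, 37.5 and 46.1 normalized counts at stage 1 and 2466, 2436 and 1518 at stage 5 (log2 fold change 5.62, SE 0.24, edgeR adjusted p = 4.59e-06). Glyma09g05630 rose from 177, 135 and 184 to 6270, 6291 and 4664 (log2 fold change 5.10, SE 0.20, edgeR adjusted p = 3.52e-06). Both rose at every step of the 5 stages. Glyma12g36570, which the study names CESA, went from 5015, 4753 and 5846 to 7840, 6941 and 8908, a log2 fold change of 0.58 (SE 0.14, edgeR adjusted p = 0.00825) that was not called when any of the 6 libraries was left out and was -0.34 under library totals.

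The member that fell, Glyma06g46450, had 22.6, 20.8 and 23.8 normalized counts at stage 1 and 0 at stage 5, at least 15.9-fold lower. The xyloglucan gene Glyma15g18360 had 554, 702 and 1254 normalized counts at stage 1 and no count in any stage 5 library, at least 597-fold lower. Its mean was already down to 116 at stage 2. Glyma09g07070, of the same family, went from 70.8, 99.98 and 99.0 to 3.40, 0 and 0, a ratio of 95.5 (95 % exact counting interval 26.2 to 792). Of the 10 genes under cell wall modification, 1 rose and 4 fell, beside 19.5 and 19.7 % of all genes, and 1 rose and 8 fell under library totals. Glyma15g35290, of this term, went from 140, 142 and 109 to 0 in each library, at least 92.3-fold lower.

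Genes of chromatin assembly and of microtubule motors fell. The term nucleosome assembly, which covers histones, had 29 genes tested, of which 26 fell and 1 rose, with a median log2 fold change of -1.92. Of all genes 19.7 % fell and 19.5 % rose. Under library totals 28 of the 29 fell and none rose. Glyma11g13940 had 2501, 2470 and 2434 normalized counts at stage 1 and 325, 379 and 538 at stage 5 (log2 fold change -2.59, SE 0.18, edgeR adjusted p = 2.56e-05). The stage 1 libraries lay close together and far above stage 5. The mean was still 2915 at stage 2 and then declined. The gene that rose, Glyma05g01120, had a log2 fold change of 0.58 (SE 0.10) that was -0.34 under library totals. Of 6 genes of microtubule-based movement, which covers kinesin motors, 4 fell and 1 rose, and under library totals 4 fell and none rose. Glyma13g19580 fell from 836, 788 and 725 to 151, 185 and 111 (log2 fold change -2.41, SE 0.18, edgeR adjusted p = 4.06e-05). The call of the gene that rose, Glyma06g04520 (log2 fold change 1.15, SE 0.25), held in 1 of the 6 fits with a library left out.

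Genes of protein synthesis rose by small amounts. Of 151 genes of the term translation, mostly of the ribosome, 83 rose and 2 fell, beside 19.5 and 19.7 % of all genes. The median log2 fold change was only 0.50. The direction depended on the scaling, since 3 rose and 68 fell under library totals, and the number that rose was between 52 and 98 when a library was left out. It was 53 without replicate 1 and 54 without replicate 3 of stage 1, and 53 without replicate 1 and 52 without replicate 2 of stage 5. Replicate 3 of stage 5 was the lowest of its stage in 123 of the 151. Glyma06g42680, under structural constituent of ribosome, rose on either scaling, from 237, 221 and 219 to 1209, 1158 and 1289 (log2 fold change 2.41, SE 0.09, edgeR adjusted p = 3.52e-06).

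Carbon metabolism held rises and falls. Of 20 genes of glycolysis, 11 rose and 1 fell, with a median log2 fold change of 0.98, but 6 rose and 6 fell under library totals. Glyma11g11870 rose by 4.49 (SE 0.27) on the log2 scale and Glyma12g04150 by 3.38 (SE 0.13). Of 6 genes of malate metabolism 5 rose, among them Glyma10g34150 from 337, 322 and 343 to 932, 1061 and 1161 (log2 fold change 1.64, SE 0.10, edgeR adjusted p = 1.91e-05). Under library totals 1 of the 6 rose and 1 fell. Of 58 genes of lipid biosynthesis 22 rose and 20 fell, and of 13 of fatty acid biosynthesis 4 rose and 5 fell, beside 19.5 and 19.7 % of all genes. Under library totals 5 of the former rose and 32 fell, and 1 of the latter rose and 7 fell.

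Both extremes of the lipid list were listed under 3-beta-hydroxy-delta5-steroid dehydrogenase activity. Glyma11g29460 rose from 331, 232 and 252 to 2842, 2757 and 2646 (log2 fold change 3.32, SE 0.16, edgeR adjusted p = 6.00e-06), with a higher mean of 4019 at stage 4. Glyma08g06630 fell from 9184, 8720 and 7893 to 30.6, 47.0 and 28.9 (log2 fold change -7.93, SE 0.22, edgeR adjusted p = 2.06e-06). Its mean was still 3733 at stage 4, with a wide spread between the libraries (SD 3031). The levels at the 2 stages did not overlap in either gene.

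Transcription factor genes that the study grouped by family moved differently by family. Of 53 genes, 9 rose and 16 fell, beside 19.5 and 19.7 % of all genes, while 3 rose and 38 fell under library totals. The number that fell was 9 without replicate 1 or 2 of stage 1 or replicate 1 of stage 5. Of 14 WRKY genes, a family known for stress responses, 8 fell and none rose in edgeR, at an unadjusted p under 0.05, or in DESeq2. The number that fell was 5 without replicate 1 of stage 1 or of stage 5. Glyma15g11680 had 179, 177 and 144 normalized counts at stage 1 and 11.9, 9.40 and 7.54 at stage 5 (log2 fold change -4.14, SE 0.24, edgeR adjusted p = 1.21e-05). Glyma09g00820 fell from 232, 197 and 176 to 1.70, 1.34 and 6.28 (log2 fold change -5.91, SE 0.37, edgeR adjusted p = 1.81e-05). Of 5 zinc finger homeodomain genes 4 rose, led by Glyma08g06120 with a log2 fold change of 3.74 (SE 0.19), and under library totals 2 of the 5 rose.

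Of 60 defense genes, 8 rose and 16 fell, beside 19.5 and 19.7 % of all genes, with a median log2 fold change of -0.23, and 2 rose and 34 fell under library totals. Of 51 resistance protein genes in the list 4 rose and 12 fell. Both genes named ADR1-like 1 fell, with a median log2 fold change of -1.52, as did both cysteine proteinase genes, with -2.86. All 3 genes named BCL-2-associated athanogene, a co-chaperone family, rose, among them Glyma16g32280 from 235, 210 and 210 to 920, 872 and 676 (log2 fold change 1.89, SE 0.14, edgeR adjusted p = 3.78e-05). Of the 60 defense genes, 4 rose without replicate 1 or 2 of stage 1 and 5 rose without replicate 1 or 2 of stage 5, and 10 fell without replicate 1 of stage 1. Of 29 genes of multidrug transport, 15 fell and 2 rose, beside 19.7 and 19.5 % of all genes, and 22 fell and 1 rose under library totals. Glyma01g44930, of the major facilitator superfamily, fell from 376, 446 and 410 to 20.4, 40.3 and 5.03 (log2 fold change -4.25, SE 0.45, edgeR adjusted p = 0.000171). Of the genes that rose, Glyma17g00550 had a log2 fold change of 3.58 (SE 0.28), and Glyma17g14550 kept its call in 1 of the 6 fits with a library left out.

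The raffinose family oligosaccharides are sugars that accumulate late in seed development. RS2 (Glyma06g18890), the gene of a raffinose synthase, rose from 105, 83.3 and 149.7 normalized counts to 723, 691 and 716 (log2 fold change 2.63, SE 0.20, edgeR adjusted p = 3.65e-05). None of 6 galactinol synthase genes, whose enzyme makes the galactosyl donor, was called in edgeR, while 1 had an unadjusted p under 0.05 and DESeq2 called 1. That gene, Glyma19g41550, had 140.0, 90.8 and 140.5 at stage 1 and 1880, 1678 and 62.8 at stage 5, so replicate 3 of stage 5 lay below the stage 1 libraries (log2 fold change 3.26, SE 0.97, edgeR adjusted p = 0.022), and it was called without that library. The stachyose synthase gene Glyma19g40550 had 308, 140 and 257 at stage 1 and 206, 236 and 221 at stage 5 (log2 fold change -0.11, SE 0.27, edgeR adjusted p = 0.746). The sugar transporter gene SugT1 (Glyma08g06420) went from 4218, 4894 and 6184 to 1442, 1791 and 381 (log2 fold change -2.10, SE 0.49, edgeR adjusted p = 0.00848), and was not called in 4 of the 6 fits with a library left out, those without any of the stage 1 replicates or without replicate 1 of stage 5.

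**Figure D3:**
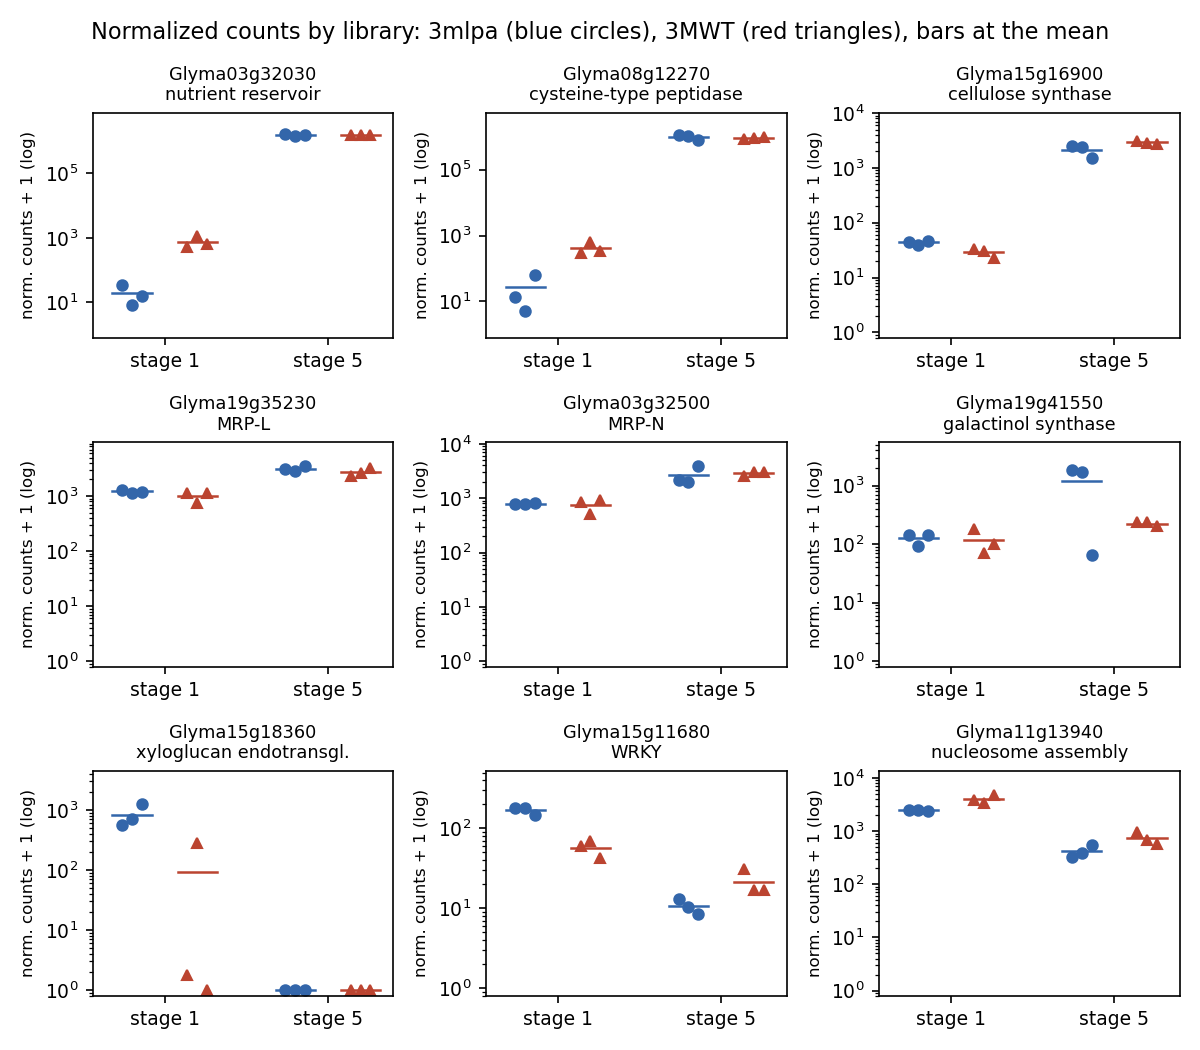
Normalized counts plus 1 (log axis) of 9 genes in each stage 1 and stage 5 library of *3mlpa* and 3MWT; points are libraries and bars are means of 3. Glyma03g32030 rose from 7.50 to 32.7 up to 1450000 to 1624000 in *3mlpa*, and Glyma19g41550 shows replicate 3 of stage 5 at 62.8 beside 1678 and 1880.

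The genes most abundant at stage 1 gave way. The 10 highest held 3.22 to 3.64 % of the counts at stage 1 and 0.501 to 0.868 % at stage 5. They were chosen for their level at stage 1, so a lower share at stage 5 is partly built in. Of the 10, 7 fell, beside 19.7 % of all genes. Among the 7, Glyma06g02500, the most abundant, and Glyma09g30910 each kept the call in 2 of the 6 fits with a library left out. Glyma19g30460 went from 33760, 26840 and 35480 to 600.4, 829 and 686 (log2 fold change -5.52, SE 0.22, edgeR adjusted p = 3.52e-06). Glyma20g27950 had 29600, 28820 and 27900 at stage 1 and 31520, 33070 and 25840 at stage 5, and was not called (log2 fold change 0.05, SE 0.17, edgeR adjusted p = 0.822). Among genes with a mean of at least 1000 at the higher stage, the steepest falls reached a log2 fold change of -8.46 (SE 0.42) in Glyma19g01280 and -8.05 (SE 0.24) in Glyma09g04550, neither with a term in the files. Glyma09g04550 went from 1007, 1102 and 940 to 5.10, 1.34 and 5.03, and was down to a mean of 40.4 at stage 3.

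The course between the ends differed between rising and falling genes. Of the genes that rose at least 2-fold, 2658 of 4556, or 58.3 %, rose in mean at every step. Step sizes were compared on the log2 scale of the means, so the largest gain in counts can come later than the largest step. The largest step led into stage 2 for 1840, stage 3 for 1765, stage 4 for 505 and stage 5 for 446. Of those that fell at least 2-fold, 3116 of 6404, or 48.7 %, fell at every step. Their largest log2 step led into stage 2 for 1253, stage 3 for 1513, stage 4 for 1429 and stage 5 for 2209. No test was made of these counts, and the stages 1 and 5 that chose the genes also form the first and last steps. The steps rest on means, and the libraries of stages 3 and 4 differed among themselves.

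In 3MWT the reads without a unique alignment were 45.1 to 66.0 % of the tally at stage 1 and 36.9 to 43.7 % at stage 5, against 13.9 to 22.2 % and 22.8 to 24.9 % in *3mlpa*, and their part in the differences between the lines was not tested. In 3MWT the same comparison called 13043 of 41141 genes, or 31.7 %. Of the genes called with a 2-fold change, 7066 were called in the same direction in both lines, which is 64.5 % of those of *3mlpa* and 73.8 % of those of 3MWT. Of the 10810 such genes of *3mlpa* that were tested in 3MWT, 10608, or 98.1 %, had the same sign there. Across the 40528 genes tested in both, the log2 fold changes had a Pearson r of 0.857, over genes that are not independent. The share of counts in nutrient reservoir activity was 0.0172 to 0.0458 % at stage 1 and 17.5 to 18.6 % at stage 5 in 3MWT, so the stage 5 range lay within that of *3mlpa*. MRP-L and MRP-N had log2 fold changes of 1.43 and 1.92 in 3MWT, with differences between the lines of -0.10 (SE 0.24, edgeR adjusted p = 0.89) and -0.22 (SE 0.36, edgeR adjusted p = 0.82).

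**Figure D4:**
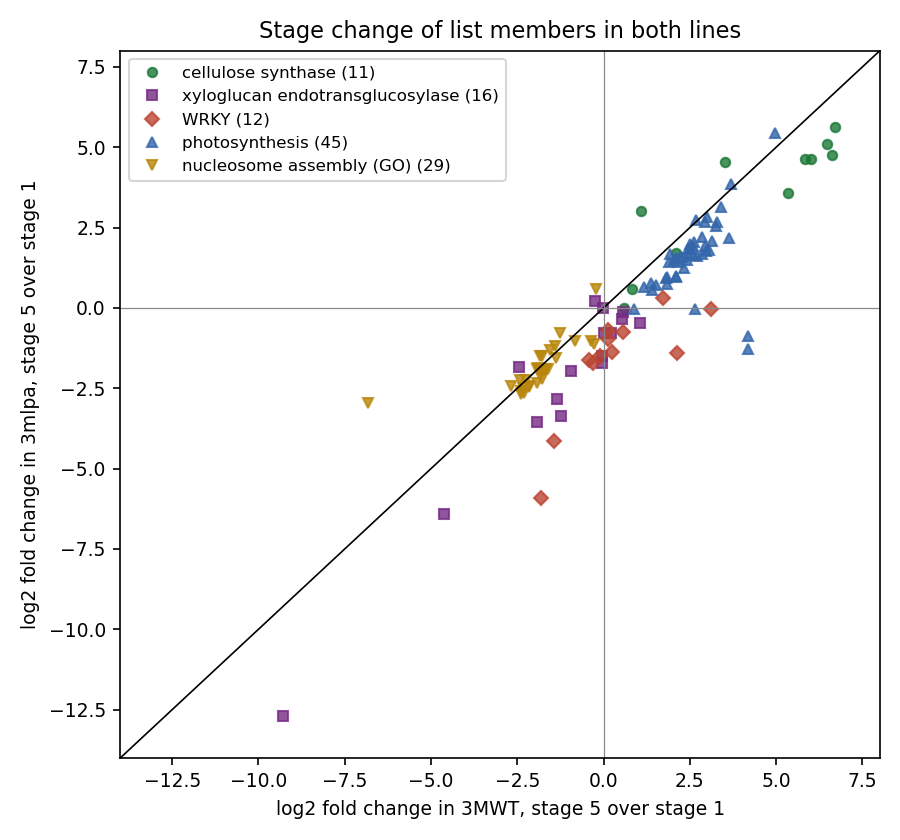
Log2 fold change from stage 1 to stage 5 in *3mlpa* (y axis) against that in 3MWT (x axis) for the genes of 5 lists (cellulose synthase, xyloglucan endotransglucosylase, WRKY, photosynthesis and nucleosome assembly), with the line of equal change. Points of cellulose synthase, photosynthesis and nucleosome assembly lie mostly on the same side of zero in both lines. The WRKY genes had medians of -1.45 in *3mlpa* and 0.13 in 3MWT, and the xyloglucan genes -1.60 and -0.15. Over all genes 98.1 % of the 2-fold DEGs of *3mlpa* had the same sign in 3MWT, while the points include genes that were not called.

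The difference of the stage change between the lines was tested directly, as the interaction of line and stage over 12 libraries, and 18 of 43810 genes passed, which is 0.0411 %. In simulated counts with 3 libraries a group this test recovered 93 of 100 planted 4-fold differences but 17 of 100 of 2-fold. Differences of 2-fold were thus mostly not detectable even there. The simulated counts had the spread fitted for a gene's level and no library that stood apart, so these are no rates for the real data. In the real data the difference of 5.26 of Glyma03g32030 did not pass in edgeR (adjusted p = 0.0124), while DESeq2 gave an adjusted p of 8.03e-24. Glyma07g01660, listed under an oxidoreductase term, had 164, 126 and 207 normalized counts at stage 1 and 45.9, 36.3 and 47.8 at stage 5 in *3mlpa*, and 7.04, 27.8 and 6.71 against 166, 178 and 182 in 3MWT. It thus fell in one line and rose in the other, and the log2 fold changes differed by -5.68 (SE 0.54, edgeR adjusted p = 0.00297). Glyma15g09250, without a term, rose in both lines, from 9.33, 10.0 and 9.98 to 76.5, 104 and 121 in *3mlpa* and from 6.26, 2.22 and 3.35 to 912, 1053 and 1482 in 3MWT (difference -4.74, SE 0.48, edgeR adjusted p = 0.00323). Glyma14g39783, of the term ATP-dependent helicase activity, had 1332, 1251 and 1361 at stage 1 and 1822, 1851 and 1568 at stage 5 in *3mlpa*, against 594, 597 and 446 and then 158, 201 and 208 in 3MWT (difference 1.89, SE 0.20, edgeR adjusted p = 0.00326).

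Among the lists, no photosynthesis, cell wall or transcription factor gene passed the test of the difference in edgeR, while 26 of 45, 15 of 29 and 27 of 53 had an unadjusted p under 0.05, beside 16.8 % of all genes, and DESeq2 called 9, 10 and 10, beside 2.43 % of all genes. The rise was larger in 3MWT in 42 of 45 photosynthesis genes, with medians of 1.66 in *3mlpa* and 2.50 in 3MWT. Of the 14 WRKY genes 8 fell in *3mlpa*, with a median of -1.45, while of the 12 tested in 3MWT 1 rose, with a median of 0.13. Glyma15g11680 fell by 4.14 on the log2 scale in *3mlpa* and had -1.44 in 3MWT (difference -2.73, SE 0.44, edgeR adjusted p = 0.0142, DESeq2 adjusted p = 6.21e-05). The study chose these families because they differed between the lines in these libraries, so this is not independent evidence. Among the storage genes, Glyma03g32030 had 7.50 to 32.7 normalized counts at stage 1 in *3mlpa* and 523, 1112 and 645 in 3MWT, against 1593000, 1579000 and 1572000 in 3MWT at stage 5. The difference of its log2 fold changes was 5.26 (SE 0.80, edgeR adjusted p = 0.0124, and below 1 % FDR without 1 of the 12 libraries). DESeq2 gave an adjusted p of 8.03e-24. Glyma03g32020 had a difference of 5.53 (SE 0.815, edgeR adjusted p = 0.0109, DESeq2 adjusted p = 3.52e-06). Of the 14 genes of nutrient reservoir activity, DESeq2 called 2 for the difference and edgeR none, and the difference was negative in 6.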

How the data were processed

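RNA of whole developing seeds was sequenced as single-end reads. The authors deposited raw counts per gene, made with TopHat2 2.0.8 on the Williams 82 genome (Glyma.Wm82.a1.0, annotation v1.1) and HTSeq-count in Union mode. The authors also deposited files of unit other, such as the GO output, from which only term membership was read. Normalized values and the authors' own comparisons, which hold fold changes and p-values between the lines, were not used. The 5 summary lines of HTSeq-count were dropped. Reads without a unique alignment were 13.9 to 24.9 % of the tally in the 6 *3mlpa* libraries.

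The comparison used the quasi-likelihood test of edgeR 4.0.16 in R 4.3.3 with TMM scaling, on genes whose counts over the 6 libraries came to 10 or more, at 1 % FDR (adjusted p of 0.01 or less, Benjamini-Hochberg). Standard errors are the log2 fold change divided by the square root of F. The interaction of line and stage was fitted over 12 libraries. Lists were described by counts and medians and were not tested. The members and lists were chosen with earlier results of these data known.

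Genes named are the 10 largest rises and falls with a mean of at least 1000 normalized counts, the 10 most abundant genes of each stage, the 3 largest rises and falls of each list, genes with a symbol in the study and the 5 largest line differences each way. None of the 54175 identifiers was in the reference table. The test recovered 60 of 100 planted 2-fold and 99 of 100 planted 4-fold changes in simulated data, which held no library that stood apart. Alternatives were other scalings (DESeq2 1.42.0 size factors, upper quartile, library totals), filters, the DESeq2 Wald test, a replicate block, all 30 libraries and each library left out. Library totals were added after seeing the data.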

Additional observations from a re-analysis of the deposited data

Results flagged for a closer look

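The test of the difference between the lines passed 18 genes, of which 9 are given here, and each was picked out because its stage change differed between *3mlpa* and 3MWT. The log2 fold change in *3mlpa* minus that in 3MWT was -6.16 for Glyma18g47450, -5.68 for Glyma07g01660, -4.74 for Glyma15g09250, -3.86 for Glyma04g36270 and -3.82 for Glyma12g16433. It was 1.89 for Glyma14g39783, 1.60 for Glyma10g31691, 1.49 for Glyma18g15480 and 1.31 for Glyma07g14350, the 4 genes that passed with a positive difference.

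With each of the 12 libraries left out in turn, Glyma07g01660 passed in 10 fits, Glyma15g09250 in 8, Glyma12g16433 and Glyma14g39783 in 6, Glyma18g47450, Glyma04g36270 and Glyma10g31691 in 4, and Glyma18g15480 and Glyma07g14350 in 3. Glyma18g47450 had 2702, 1516 and 3404 normalized counts at stage 1 and 28.9, 34.9 and 1.26 at stage 5 in *3mlpa*, and 971, 699 and 890 against 616, 613 and 234 in 3MWT. Glyma12g16433 had 111, 115 and 118 against 3.40, 1.34 and 3.77 in *3mlpa*, and 136, 125 and 179 against 41.8, 50.3 and 62.4 in 3MWT. Glyma04g36270 did not pass the test of stage in *3mlpa* (65.3, 69.2 and 102 against 39.1, 68.5 and 49.0) and rose in 3MWT from 4.69, 5.55 and 3.35 to 35.8, 44.5 and 50.8.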

How the results depend on the processing

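The count of genes called in *3mlpa* was 11613 to 20440 under the alternatives other than library totals, within 1.5 times the 16515 reported. With a library left out it ranged from 11613, without replicate 2 of stage 1, to 17406, without replicate 3 of stage 5. Under library totals 26820 genes were called, 2566 higher and 24254 lower, and 19296 with at least a 2-fold change. The cause of the shift was not tested. Among the named genes called in *3mlpa*, it turned the log2 fold change of 7 to -0.34 for Glyma12g36570, -0.34 for Glyma05g01120, -0.26 for Glyma06g14080, -0.47 for Glyma05g00780, -0.039 for Glyma18g44350, -0.043 for Glyma10g31691 and -0.11 for Glyma18g15480. The sign also turned in Glyma17g23900, Glyma17g01720, Glyma20g27950, Glyma07g32020 (UBQ10) and Glyma14g39783, which were not called in *3mlpa*. Of the other values of the 169 named genes under alternatives that left out no library, 1797 kept their direction and call, 36 lost the call and 12 gained it.

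The 18 genes that differed between the lines were the least stable result. The count was 31 under library totals, 106 without a filter on low counts, 1064 with the DESeq2 Wald test and 541 with all 30 libraries in the fit, and 0 to 357 with a library left out (0 without replicate 2 of stage 5 of *3mlpa*, with 6700 genes at an unadjusted p under 0.05, and 357 without replicate 2 of stage 1 of 3MWT). The cause was not tested. Same-numbered *3mlpa* libraries had deviations that correlated at 0.000856, 0.0234 and 0.0711, and differently numbered ones at -0.0704 to 0.0584. No pairing by number was seen, though 3 libraries a stage are too few to exclude it. With a replicate block 13525 genes were called in *3mlpa* and 0 for the difference (edgeR, 5859 at an unadjusted p under 0.05).

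Library totals ran from 18625357 to 24607364 counts at the stages compared. Of the genes tested 102 had 0 counts at stage 1 and 825 had 0 at stage 5, and for these a change is given as a bound.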

Other observations

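Genes of photosystem II were chosen after their values were seen, 2 of psbE and 1 of psbA, because they did not follow the rest of the photosynthesis list. The psbE gene Glyma12g36132 had 17.1, 30.0 and 21.5 normalized counts at stage 1 and 10.2, 13.4 and 5.03 at stage 5 in *3mlpa*, and 61.0, 126 and 58.1 against 445, 1488 and 2496 in 3MWT (difference of log2 fold changes -5.49, SE 0.96, edgeR adjusted p = 0.0205, DESeq2 adjusted p = 1.08e-08). The other psbE gene, Glyma15g38110, had 1.56, 3.33 and 3.07 against 0, 1.34 and 2.51 in *3mlpa*, and 3.13, 12.2 and 4.47 against 32.8, 128 and 190.2 in 3MWT (difference -5.07, SE 1.37, edgeR adjusted p = 0.0841, DESeq2 adjusted p = 0.0058). The psbA gene Glyma13g15560 had 12.4, 35.0 and 23.0 against 23.8, 28.2 and 17.6 in *3mlpa*, and 78.2, 152 and 87.2 against 339, 636 and 989 in 3MWT (difference -2.70, SE 0.64, edgeR adjusted p = 0.0562). DESeq2 called this difference at 1 % FDR. In 3MWT the stage 5 libraries of these genes lay far apart, with replicate 1 the lowest of each. Reads without a unique alignment were 36.9 to 43.7 % of the tally at stage 5 in 3MWT and 22.8 to 24.9 % in *3mlpa*. Their part in these differences was not tested.

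Of 31 genes of amino acid biosynthesis 14 rose and 6 fell in *3mlpa*, and of 297 of oxidation reduction 102 rose and 66 fell, beside 19.5 and 19.7 % of all genes. Under library totals 8 rose and 16 fell, and 54 rose and 152 fell. Glyma05g03210, under glutamine family amino acid biosynthesis, rose by 3.67 on the log2 scale (SE 0.11, edgeR adjusted p = 2.06e-06), from a mean of 299 to 3864 normalized counts. Glyma20g24530, under an oxidoreductase term, rose by 7.95 (SE 0.42) to a mean of 48590, and Glyma13g23790, under NAD or NADH binding, by 6.75 (SE 0.35) to a mean of 115800. Glyma11g27480, of amino acid biosynthesis, went from 35.0, 24.2 and 29.2 to 0, 0 and 1.26, a ratio of 62.9 (95 % exact counting interval 11.1 to 2507), and Glyma13g41310, under copper ion binding, from 33.5, 54.2 and 31.5 to 0 in each library, at least 27.9-fold lower. The xyloglucan gene Glyma15g18360, at 554 to 1254 normalized counts at stage 1 of *3mlpa*, had 0.782, 278 and 0 at stage 1 of 3MWT, where the middle value belongs to the library that stood apart.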
